A study of Mus musculus with 16 samples.

Results

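Chemokines and their receptors were examined in bone marrow stromal cells of sickle mice, with the stromal chemokine Cxcl12 left aside. The genes were taken by symbol alone: every gene of the count table named Cxcl, Ccl, Cxcr, Ccr or Ackr with a number, together with Cx3cl1, Cx3cr1 and Xcr1. This gave 59 of the 52459 genes in the table, 36 of them ligands and 23 receptors. 37 of the 59 (20 ligands and 17 receptors) passed the filter on low counts and could be tested, as did 17316 genes in all. The cells were sorted from digested marrow as live single cells lacking CD45, Ter119 and CD31 and carrying CD51 and CD140a. Bulk RNA was sequenced in 4 SS and 4 SA libraries, numbered 1 to 4 in each genotype and run on 2 lanes. The count table has 1 column for each library, with 24797857 to 31117007 counts.

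All mice were Townes mice, which carry the human alpha globin allele Hbatm1(HBA)Tow (hα). SS mice are homozygous for a construct with the human A-gamma and sickle beta (βS) globin genes in place of the mouse major and minor beta globin genes (hα/hα::βS/βS). SA mice, the controls, are heterozygous, with 1 copy of βS and 1 of the human wild-type beta globin gene βA (hα/hα::βA/βS). Controls thus also carry a sickle gene and human alpha globin. Age, sex and treatment are not given in the labels. Only the numbering of the titles tells the libraries of a genotype apart, and no label states that each came from an animal of its own, so p-values measure the spread between these libraries, which may be technical.

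Several features of the libraries touch the results. 1 of the lanes of SS replicate 4 is titled SS and carries SA in its other labels, and was kept in SS by its title. Date-like numbers in the titles separate SA from SS entirely, so a batch that follows them and the genotype cannot be told apart. SS replicate 2 has a number of its own and 57347 counts of Xist, the transcript of the inactive X chromosome, against at most 420 in any other library. Ddx3y, a gene of the Y chromosome, had 12 counts there and 2282 to 4436 in the others. By these 2 transcripts SS replicate 2 alone was female, so SS and SA were not matched for sex. Pdgfra, which encodes CD140a, was at 169 to 481 CPM (counts per 1000000 counts of the TMM-adjusted library total) in every library. Transcripts of gated-out leukocytes were also present. Ptprc, which encodes CD45, was at 748, 735, 209 and 124 CPM in SA replicates 1 to 4 and at 499, 54.1, 206 and 49.7 CPM in SS replicates 1 to 4. The summed level of 15 pan-leukocyte genes, none of them at 0 counts, ran from 753 to 4563 CPM in SA and from 336 to 2684 CPM in SS. It was highest in SA replicates 2 and 1 and in SS replicate 1.

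Chemokines are small secreted or membrane-held proteins that steer cells along gradients. They act on receptors of the G protein-coupled class, and their families are named by the spacing of conserved cysteines (CXC, CC, CX3C and XC). CXC ligands with a Glu-Leu-Arg motif, such as Cxcl1, Cxcl2 and Cxcl5, draw neutrophils through Cxcr2, whereas Cxcl9 and Cxcl10 act on Cxcr3 of lymphocytes. Inflammatory CC ligands act on monocytes and granulocytes through receptors such as Ccr1, Ccr2 and Ccr3. The atypical receptors Ackr1 to Ackr4 bind chemokines without classical G protein signalling and remove or carry them. In marrow, stromal cells make chemokines that hold or release blood cells, and blood cells carry most of the signalling receptors.

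Stretches upstream of 3 neighbouring ligands of the Glu-Leu-Arg group are shown because all hold the same motif, while the levels of Cxcl1 and Cxcl2 differed in pattern between libraries, as described further on. They come from RefSeq (GRCm38.p6), run 5′ to 3′ on the gene's strand, which is the plus strand of chromosome 5, and lie wholly before the annotated start. Capitals mark a match to the NF-kB consensus motif GGGRNNYYCC (R is A or G, Y is C or T, N is any base). The match reads GGGAATTTCC in all 3. The Cxcl1 stretch is chr5:90891119-90891238, that of Cxcl2 is chr5:90903747-90903866 and that of Cxcl3 is chr5:90785973-90786092.
Cxcl1: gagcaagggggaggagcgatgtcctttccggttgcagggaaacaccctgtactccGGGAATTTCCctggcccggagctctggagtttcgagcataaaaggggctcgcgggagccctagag
Cxcl2: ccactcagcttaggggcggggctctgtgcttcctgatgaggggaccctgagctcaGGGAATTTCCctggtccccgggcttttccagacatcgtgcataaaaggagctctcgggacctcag
Cxcl3: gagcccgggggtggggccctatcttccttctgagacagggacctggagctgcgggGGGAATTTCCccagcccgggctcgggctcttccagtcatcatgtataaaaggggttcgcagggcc
The match lies 71 to 62 bases before the start of Cxcl1, 97 to 88 before that of Cxcl2 and 73 to 64 before that of Cxcl3. On the other strand a further match overlaps it, shifted by 1 base, in each of the 3. RefSeq held such windows for 44 of the 59 genes. In the 250 bases before the start, searched on both strands, a match of any sequence to the consensus was found in 11 of the 44 (25.0%). Among them were Cxcl10, Ccl9, Ccl20 and Ccr1, whose matches are not all GGGAATTTCC. Of all 27025 genes with a window, 8.23% held a match. Tandem copies such as these 3 ligands share sequence and are not independent. A match is a description of letters and says nothing of whether the factor binds there. The interferon-stimulated response element core (GAAA, any 2 bases, GAAA; both strands) was found upstream of Cxcl10, Cxcl14 and Ccl19, 6.82% of the 44 against 3.46% of all genes.

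Between genotypes none of the 37 chemokine and receptor genes tested passed, and none of these 37 was separate between the groups. The smallest p values belonged to the Cxcl12 receptor Cxcr4, lower in mean in SS, and the neutrophil-attracting ligand Cxcl1, higher in mean in SS. By edgeR's quasi-likelihood test with Benjamini-Hochberg adjustment over all genes, 0 of the 37 had an adjusted p under 0.05, as did 0 of 17316 genes (0%). An unadjusted p under 0.05 was found for 2 of 37 (5.41%), against 6.98% of all genes. Of these Cxcl1 was higher in SS and Cxcr4 lower, 2.7% of the members in each direction, against 4.03% of all genes higher and 2.96% lower. DESeq2 called 0 of the 35 members to which it gave an adjusted p, against 0.749% of all genes, and 4 had an unadjusted p under 0.05 (11.4%, against 9.76% of all genes). These 4 were Cxcr4, Cxcl1, Cxcr3 and Ccl25. Limma-voom called 0 members and 0 genes. Groups without overlap were seen for 0 of 37, against 3.91% of all genes (2.36% higher and 1.55% lower in SS). 22 of the 37 had a negative log2 fold change of SS over SA (59.5%, against 51% of all genes), with a median of -0.14 over the 37 and -0.01 over all genes. 1 library moved the count: without SS replicate 1, 9 of 37 (24.3%, against 10.8% of all genes) had an unadjusted p under 0.05, all 9 of them lower in SS, and none passed adjustment (edgeR, smallest adjusted p = 0.286). Without SA replicates 1 and 2 and SS replicate 1, the libraries richest in leukocyte transcripts, 6 of 37 (16.2%, against 6.38% of all genes) had such a p and 20 of 37 (54.1%, against 48.5%) a negative fold change. With the pan-leukocyte level as a covariate 2 of 37 (5.41%, against 4.86% of all genes) had such a p, namely Cxcl1 and Ccr3, and 13 of 37 (35.1%, against 50.8%) a negative fold change.

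**Figure D1:**
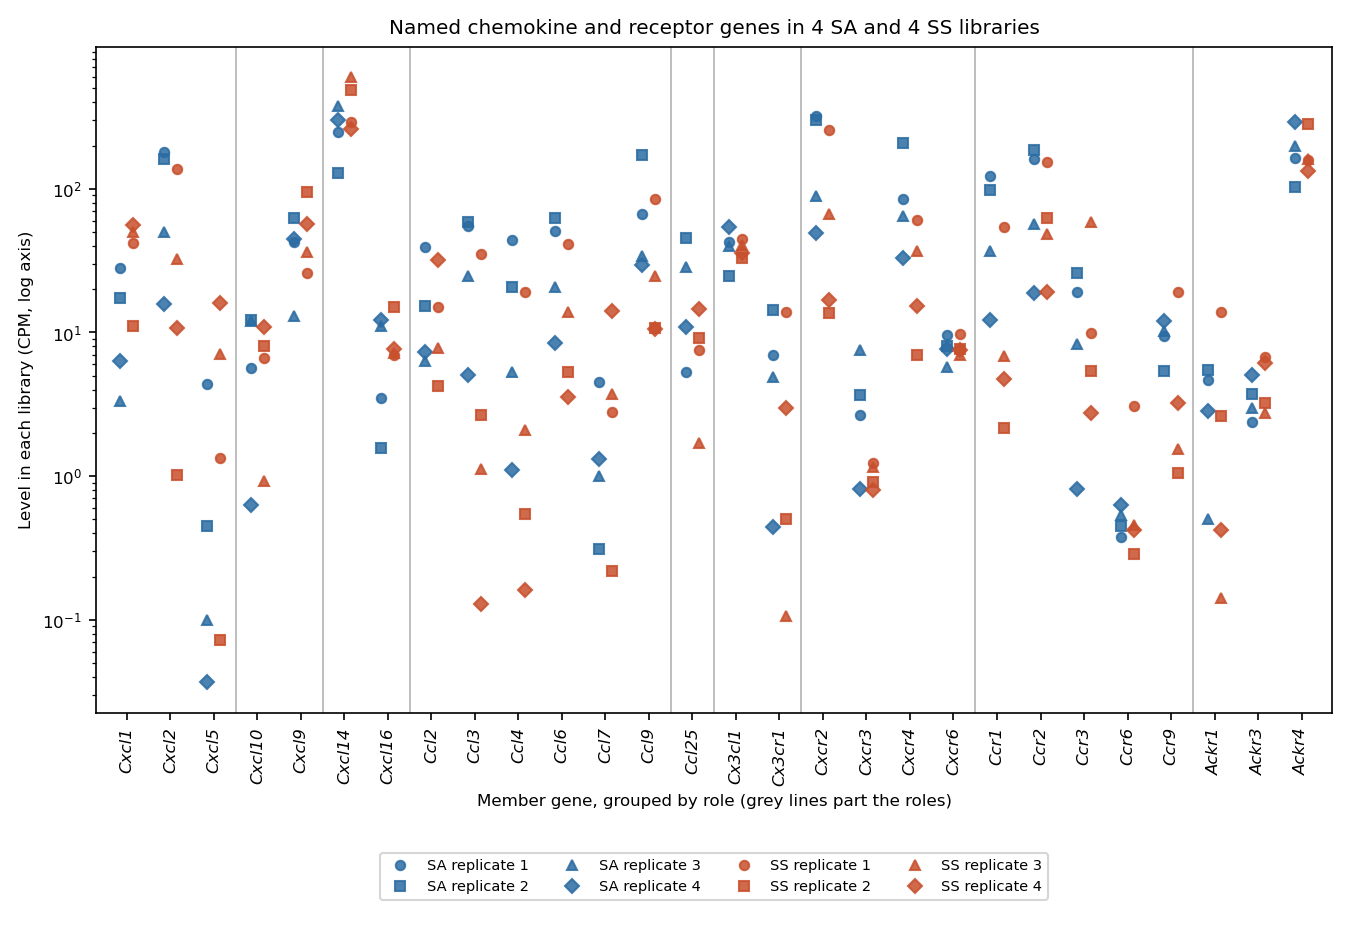
Level of each named gene that passed the low-count filter in each of 8 libraries, in CPM on a log axis, with SA in blue, SS in orange and a symbol for each replicate number. Every gene's SA and SS points overlap; Cxcl14, Ackr4, Cx3cl1 and Cxcr6 lie in narrow bands and Ccl3, Ccl4 and Cxcl5 spread most widely.

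Levels were compared between genes only after division by exon length (CPM per kilobase of exon, GENCODE M21 on GRCm38). On that scale Cxcl14, a CXC ligand made by many epithelia and stromal cells, was the highest in both genotypes, at 144 in SA and 224 in SS. It ranked first in 7 of 8 libraries but number 5 in SA replicate 2, where Cxcr4 and Cxcr2 led. For scale, Cxcl12 was at 2200 in SA and 2223 in SS. Next in SA came Cxcr2 (62.1), Cxcr4 (54.1), Cxcl2 (49.4), Ccl3 (46.8) and Ackr4 (35.1), and in SS Ackr4 (34.2), Cxcr2 (28.9), Cxcl2 (21.9), Cxcl1 (21.2) and Cxcl9 (17.8). The spread between libraries exceeded the gaps between these neighbours, as the plot of levels per exon length shows.

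**Figure D2:**
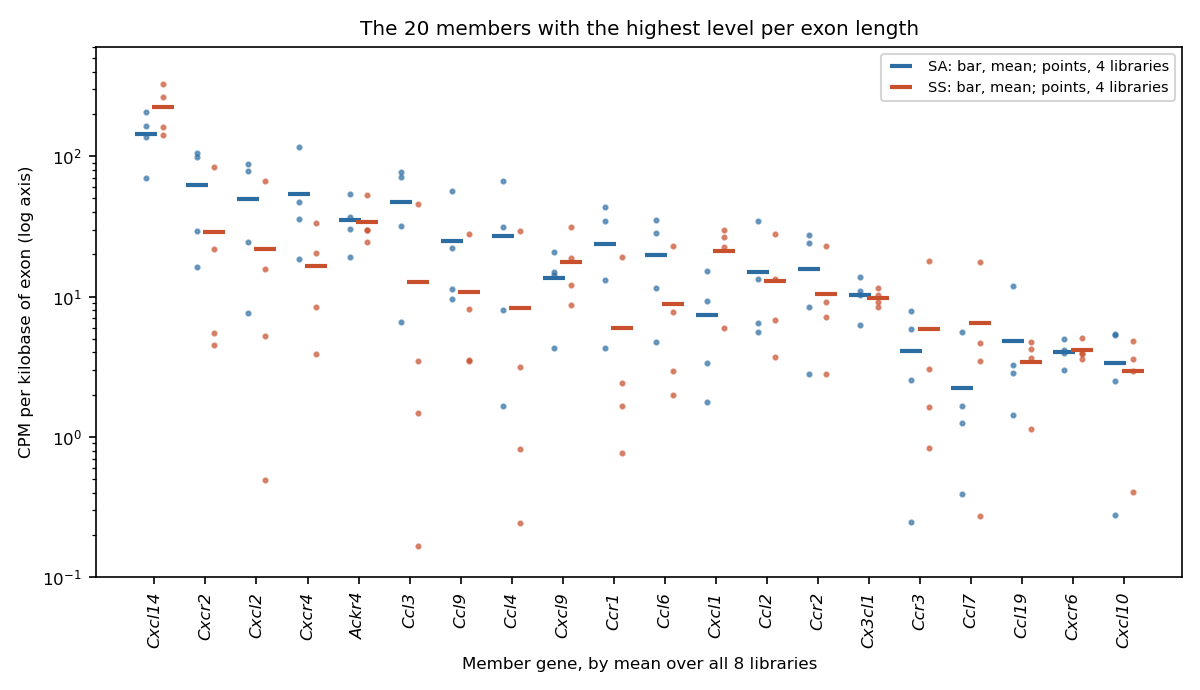
Level per exon length (CPM per kilobase of exon, log axis) of the 20 members with the highest mean over all 8 libraries, with points for the libraries and a bar for the mean of each genotype (n = 4). Cxcl14 lies highest at 144 in SA and 224 in SS, and among the genes to its right the points of neighbours overlap.

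The ligands that act on Cxcr2 did not share a pattern between libraries. Cxcl1 was at 28.3, 17.4, 3.35 and 6.29 CPM in SA replicates 1 to 4 and at 42.1, 11.1, 50.2 and 55.8 CPM in SS replicates 1 to 4. SS replicates 1, 3 and 4 lay above every SA library, and SS replicate 2 lay below SA replicates 1 and 2. The means were 13.8 ± 11.4 CPM in SA and 39.8 ± 19.9 CPM in SS (SD, n = 4 each), with a log2 fold change of 1.52 (SE 0.67, edgeR unadjusted p = 0.045, adjusted p = 0.698). The lead was 2.61 with the pan-leukocyte level as a covariate (edgeR adjusted p = 0.864), and leaving out the 3 leukocyte-rich libraries gave 3.02 (edgeR adjusted p = 0.713). With each library left out it ran from 1.19 to 2.14, and the unadjusted p stayed under 0.05 without SA replicate 1 or SS replicate 2 but not without any of the other 6. The gene lies on chromosome 5 (GRCm38, 90891241 to 90893115).

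Cxcl5 had 117, 13, 3 and 1 counts in SA replicates 1 to 4 and 38, 2, 201 and 494 counts in SS replicates 1 to 4. Its high libraries, SS replicates 4 and 3, SA replicate 1 and SS replicate 1, are also the 4 with the highest Cxcl1. The log2 fold change was 2.29 (SE 1.60, edgeR adjusted p = 0.786), and it ran from 1.19 to 4.92 with each library left out. Cxcl2 ranked the libraries otherwise, at 181, 162, 50.4 and 15.8 CPM in SA and 137, 1.01, 32.4 and 10.8 CPM in SS. Its 3 highest libraries were the leukocyte-rich ones, and SS replicate 2 lay at the bottom with 28 counts. The log2 fold change of Cxcl2 was -1.17 (SE 1.10, edgeR adjusted p = 0.843), and it was 0.54 with the pan-leukocyte covariate and -2.79 without SS replicate 1. Cxcl3 had 3 to 52 counts, most of them in SS replicate 1 (52) and SA replicate 1 (29), and was not tested.

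Cxcr2, the receptor of these ligands on neutrophils, followed the order of Cxcl2. It was at 320, 300, 88.8 and 49.3 CPM in SA replicates 1 to 4 and at 255, 13.7, 66.6 and 16.8 CPM in SS replicates 1 to 4. SA replicates 1 and 2 and SS replicate 1 were high in both genotypes alike, and the groups overlapped. Its log2 fold change was -1.11 (SE 0.89, edgeR adjusted p = 0.816), -2.55 without SS replicate 1 and 0.37 with the pan-leukocyte covariate. Summed neutrophil transcripts (15 genes, none at 0) ran from 6120 to 35204 CPM in SA and from 1378 to 17173 CPM in SS. In bulk samples, fewer cells of a type and less RNA per cell cannot be told apart, here and for the receptors below. Cxcr1, the other receptor of this branch, had 0 to 46 counts.

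A mural cell list is given beside Cxcl1 because its groups did not overlap, although it did not pass adjustment. The summed level of 10 pericyte and smooth muscle genes, none at 0, was 673 to 860 CPM in SA and 1312 to 6599 CPM in SS, with the maximum in SS replicate 4 (two-sided exact permutation p = 0.0286, the smallest that 4 against 4 allows, adjusted p = 0.371 over 13 marker lists). The B cell list had the same adjusted p. Within SS the sum and Cxcl1 ranked the libraries alike, from SS replicate 4 (6599 and 55.8 CPM) down to SS replicate 2 (1312 and 11.1 CPM). Within SA they did not, since SA replicate 1 had the lowest sum, 673 CPM, with the highest Cxcl1 of SA, 28.3 CPM. SS replicate 2 had more of the list than every SA library but less Cxcl1 than SA replicates 1 and 2. The part of mural cells in the Cxcl1 values was not tested.

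The interferon-induced ligands of Cxcr3 differed between genotypes by less than the spread between libraries. Cxcl9 was at 42.8, 62.8, 13.1 and 44.8 CPM in SA and at 26.1, 94.8, 36.2 and 57.1 CPM in SS, with its maximum in SS replicate 2. Its fitted log2 fold change was 0.39 (SE 0.50, edgeR adjusted p = 0.897), and it was -0.04 without SS replicate 2. Cxcl10 ran from 0.626 to 12.1 CPM in SA and from 0.919 to 10.8 CPM in SS, and Cxcl11 had 0 counts in all 8 libraries. A count of 0 allows up to 3 counts, 0.0967 to 0.113 CPM by library. Such floors hold for counting error alone, as PCR copies of a molecule were not marked. Their receptor Cxcr3, found on activated T and NK cells, was at 2.67, 3.65, 7.60 and 0.810 CPM in SA and 1.23, 0.905, 1.17 and 0.806 CPM in SS. SA replicates 1 to 3 lay above every SS library and SA replicate 4 among them. Its fitted log2 fold change was -1.84 (SE 0.89, edgeR adjusted p = 0.734). Summed T and NK cell transcripts (12 genes, none at 0) were at 41.1 to 90.9 CPM in SA and 36.7 to 52.7 CPM in SS, and their part in the Cxcr3 values was not tested.

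Among the other CXC ligands, Cxcl14 was at 250, 128, 375 and 301 CPM in SA and at 294, 485, 597 and 259 CPM in SS. SS replicates 2 and 3 lay above every SA library and the other SS libraries within the SA range. The means were 263 ± 104 and 409 ± 160 CPM, with a log2 fold change of 0.63 (SE 0.36, edgeR adjusted p = 0.752). Cxcl14 lies on chromosome 13 (56288643 to 56296551) and had 3680 to 16904 counts per library, the best sampled of the 59. Cxcl16, a membrane-bound ligand that also takes up oxidized lipoprotein, was at 3.50, 1.56, 11.1 and 12.2 CPM in SA and at 6.98, 15.1, 7.17 and 7.64 CPM in SS. Its lowest libraries were SA replicates 2 and 1, the richest in leukocyte transcripts. The log2 fold change was 0.38 (SE 0.68, edgeR adjusted p = 0.935), and it was -0.22 with the pan-leukocyte covariate. Its receptor Cxcr6 varied little, at 5.79 to 9.62 CPM over SA libraries and 6.96 to 9.83 CPM over SS libraries, a log2 fold change of 0.04 (SE 0.45, edgeR adjusted p = 0.992). Cxcl13 had at most 23 counts in a library and Cxcl17 had 0 throughout.

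Of 8 inflammatory CC ligands tested, 7 had a negative log2 fold change and 1, Ccl7, a positive one, with 0 called and a smallest edgeR adjusted p of 0.766. Their median was -0.79, beside -0.01 over all genes, and it was 0.36 with the pan-leukocyte covariate. Ccl3, a ligand of Ccr1, was at 54.9, 59.1, 24.6 and 5.04 CPM in SA and at 35.0, 2.68, 1.13 and 0.129 CPM in SS. SS replicates 2, 3 and 4 lay below every SA library, and SS replicate 1 lay between SA replicates 2 and 3. Its log2 fold change was -1.88 (SE 1.28, edgeR adjusted p = 0.782), -4.77 without SS replicate 1 and -0.57 with the covariate. Ccl4, a close relative of Ccl3, was at 43.8, 20.7, 5.32 and 1.10 CPM in SA and at 19.3, 0.543, 2.08 and 0.161 CPM in SS. It too was high in SS replicate 1 alone among SS libraries (log2 fold change -1.69, SE 1.35, edgeR adjusted p = 0.816, and 0.46 with the covariate). Without SS replicate 1 the fold change of Ccl4 was -4.25, and without SA replicate 1 it was -0.72.

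Ccl6 and Ccl9, ligands of Ccr1 made by mouse myeloid cells, were also highest in the leukocyte-rich libraries. Ccl6 was at 50.7, 62.7, 20.6 and 8.50 CPM in SA and at 41.3, 5.29, 13.99 and 3.55 CPM in SS, a log2 fold change of -1.15 (SE 0.80, edgeR adjusted p = 0.786). Ccl9 was at 67.0, 171, 34.3 and 29.3 CPM in SA and at 85.5, 10.8, 24.8 and 10.6 CPM in SS, a log2 fold change of -1.20 (SE 0.75, edgeR adjusted p = 0.766). SS replicate 1 lay among the high SA libraries for both, and the other SS libraries lay below SA replicate 3. With the covariate these fold changes were 0.34 and 0.11, and without SS replicate 1 they were -2.23 and -2.29. Without SA replicate 2 the value of Ccl9 was -0.40 and that of Ccl6 -0.73.

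Ccl2 and Ccl7, which recruit monocytes through Ccr2, had another pattern. Ccl2 was at 39.3, 15.2, 6.33 and 7.32 CPM in SA and at 15.1, 4.24, 7.81 and 31.9 CPM in SS, so SA replicate 1 and SS replicate 4 stood highest. Its log2 fold change was -0.20 (SE 0.72, edgeR adjusted p = 0.972) and turned to 1.11 without the 3 leukocyte-rich libraries. Ccl7 was at 4.51, 0.313, 1.004 and 1.32 CPM in SA and at 2.78, 0.217, 3.75 and 14.2 CPM in SS. The 4 highest libraries for Ccl7 were those highest for Cxcl1 and Cxcl5 (log2 fold change 1.55, SE 1.17, edgeR adjusted p = 0.798, and 0.33 without SS replicate 4). Ccl5 was at 0.294 to 3.91 CPM and Ccl1 at 0.212 to 0.528 CPM over the 8 libraries.

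The receptors of these ligands were uneven between libraries. Ccr1, on neutrophils and monocytes, was at 123, 97.3, 37.2 and 12.2 CPM in SA and at 54.3, 2.17, 6.82 and 4.74 CPM in SS. SS replicates 2, 3 and 4 lay below every SA library and SS replicate 1 inside the SA range. Its log2 fold change was -1.99 (SE 0.98, edgeR adjusted p = 0.734), -3.88 without SS replicate 1 and -0.48 with the pan-leukocyte covariate. Ccr2, the receptor that brings monocytes out of marrow, was at 162, 186, 57.1 and 18.9 CPM in SA and at 154, 62.1, 48.7 and 19.0 CPM in SS. The ranges nearly coincided (log2 fold change -0.58, SE 0.71, edgeR adjusted p = 0.892), and the value was 0.95 with the covariate. Summed monocyte and macrophage transcripts (15 genes, none at 0) were at 864 to 5062 CPM in SA and 440 to 3602 CPM in SS.

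Ccr3, the eotaxin receptor of eosinophils and basophils, was at 19.1, 25.8, 8.27 and 0.810 CPM in SA and at 9.90, 5.36, 58.6 and 2.74 CPM in SS. SS replicate 3 alone exceeded the SA range, and without it the log2 fold change turned from 0.50 (SE 1.04, edgeR adjusted p = 0.952) to -1.17. Summed eosinophil, basophil and mast cell transcripts (8 genes, none at 0) were at 27.3 CPM in SS replicate 3, below SA replicates 1 and 2 (122 and 183 CPM) and SS replicate 1 (84.4 CPM). Ccr6 stood at 3.06 CPM in SS replicate 1 and at 0.290 to 0.626 CPM in the other 7, and its log2 fold change turned from 1.08 (edgeR adjusted p = 0.850) to -0.35 without SS replicate 1. Ccr7, Ccr8 and Ccr10 passed the filter at levels up to 11.2, 1.94 and 6.73 CPM.

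Among the homeostatic ligands, Ccl25 is best known for guiding thymocytes and gut lymphocytes through Ccr9. Per kilobase of exon it was at 3.03 in SA and 1.11 in SS, below Ccl19 at 4.83 and 3.44. This order rests on merged exon lengths of 7445 bases for Ccl25 and 867 for Ccl19. In mean CPM it was the other way, at 22.6 in SA and 8.23 in SS for Ccl25 and 4.19 and 2.98 for Ccl19. Ccl25 was at 5.30, 45.3, 28.8 and 10.9 CPM in SA and at 7.54, 9.16, 1.70 and 14.5 CPM in SS. SA replicates 2 and 3 lay above every SS library, and SA replicates 1 and 4 lay within the SS range. The log2 fold change was -1.46 (SE 0.74, edgeR adjusted p = 0.734), and it was -1.63 with the pan-leukocyte covariate. Part of its exons overlap those of Elavl1 on the other strand, and since the strand setting of the counting is not given, reads of the 2 genes cannot be separated there. Ccr9 was at 9.40, 5.42, 10.3 and 12.0 CPM in SA and at 19.3, 1.05, 1.56 and 3.26 CPM in SS. SS replicates 2, 3 and 4 lay below every SA library and SS replicate 1 above all of them (log2 fold change -0.56, SE 0.86, edgeR adjusted p = 0.923, and -2.24 without SS replicate 1). Exons of Ccr9 also overlap other genes, among them Slc6a20a on the other strand. The same doubt holds for Cxcl10, Cxcl16, Cx3cr1 and Cxcr5, whose exons overlap another gene on the other strand. Those of Ackr1 overlap Cadm3 on the same strand. Ccl19, a ligand of Ccr7, ran from 1.24 to 10.2 CPM in SA and from 0.986 to 4.13 CPM in SS. Ccl27a, at 1.59 to 5.002 CPM, and Ccl28, at 0 to 1.80 CPM, were the other homeostatic ligands tested. Ccl27a overlaps Il11ra1 on the other strand and has near-identical copies, so its value is uncertain.

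Cx3cl1, a membrane-anchored chemokine of stromal, endothelial and nerve cells, was even across libraries. It was at 43.0, 24.6, 40.0 and 53.9 CPM in SA and at 45.1, 32.9, 40.3 and 35.9 CPM in SS, with means of 40.4 ± 12.1 and 38.5 ± 5.32 CPM. The difference was within the spread (log2 fold change -0.07, SE 0.29, edgeR adjusted p = 0.979). Its receptor Cx3cr1, on monocytes and macrophages, was at 6.96, 14.5, 4.89 and 0.442 CPM in SA and at 13.95, 0.507, 0.106 and 2.97 CPM in SS. It was high in the leukocyte-rich libraries of both genotypes (log2 fold change -0.61, SE 1.28, edgeR adjusted p = 0.953).

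Cxcr4, through which Cxcl12 holds blood cells in marrow, had the smallest p of the 37. It was at 85.1, 209, 64.5 and 33.2 CPM in SA and at 60.3, 7.02, 36.9 and 15.3 CPM in SS. SS replicates 2 and 4 lay below every SA library, while SS replicates 1 and 3 lay above SA replicate 4. The means were 97.9 ± 76.9 and 29.9 ± 23.9 CPM, with a log2 fold change of -1.71 (SE 0.68, edgeR unadjusted p = 0.0294, adjusted p = 0.695). The covariate fit gave -0.41 (edgeR adjusted p = 1), and leaving out the 3 leukocyte-rich libraries gave -1.31 (edgeR adjusted p = 0.828). With each library left out it ran from -2.31 to -1.03, the smallest in size without SA replicate 2, and the unadjusted p was no longer under 0.05 without SA replicate 2, SS replicate 2 or SS replicate 4. The gene lies on chromosome 1 (128588199 to 128592293). Its ligand Cxcl12 averaged 17989 ± 6379 CPM for SA libraries and 18178 ± 3442 CPM for SS libraries.

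**Figure D3:**
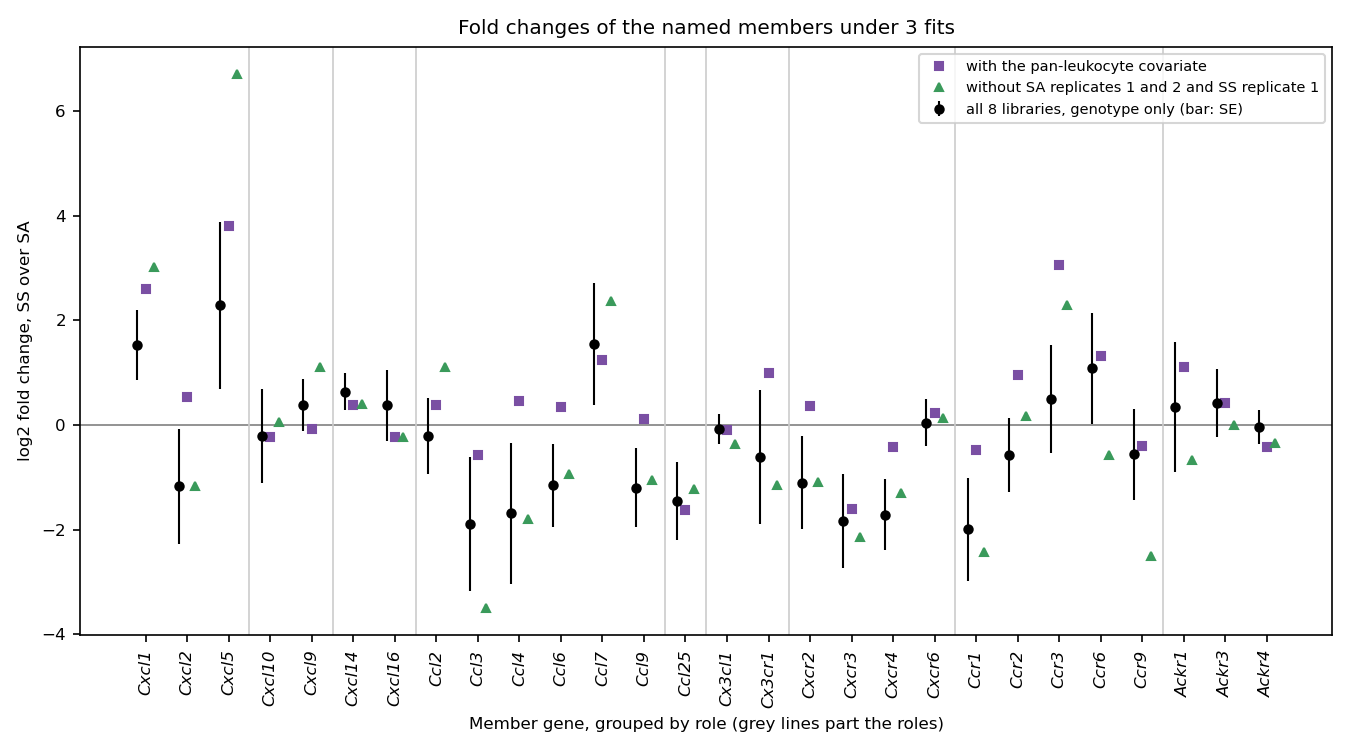
Log2 fold change of SS over SA for each named gene from all 8 libraries (black, bar is the SE), with the pan-leukocyte covariate (violet squares) and without SA replicates 1 and 2 and SS replicate 1 (green triangles). Cxcl1 lies above 0 in all 3 (1.52, 2.61 and 3.02), and Cxcr2 lies below 0 in the first and at 0.37 with the covariate.

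The atypical receptors differed mainly in level. Ackr4, which removes Ccl19, Ccl21 and Ccl25, was at 164, 104, 198 and 289 CPM in SA and at 159, 284, 160 and 132 CPM in SS. It had 2985 to 7863 counts per library, and the ranges largely coincided (188.9 ± 77.6 and 183.8 ± 67.9 CPM, log2 fold change -0.04, SE 0.33, edgeR adjusted p = 0.991). Ackr4 lies on chromosome 9 (104084157 to 104126933), and part of its exons overlap those of Acad11 on the other strand. Ackr3, a scavenger of Cxcl12, was at 2.37 to 5.04 CPM in SA and 2.76 to 6.76 CPM in SS, a log2 fold change of 0.42 (SE 0.65, edgeR adjusted p = 0.924). On the scale per exon length Ackr4 was at 35.1 in SA and 34.2 in SS, and Ackr3 at 1.05 and 1.41.

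Ackr1, the Duffy receptor of venular endothelium and red cell precursors, was at 4.66, 5.49, 0.502 and 2.83 CPM in SA and at 13.99, 2.61, 0.141 and 0.419 CPM in SS. SS replicate 1 was the highest. Summed endothelial transcripts (9 genes, none at 0) were also highest there, at 168 CPM against 13.1 to 108 CPM in SA and 16.3 to 30.0 CPM in the other SS libraries, and their part in the Ackr1 values was not tested. The log2 fold change of Ackr1 was 0.35 (SE 1.25, edgeR adjusted p = 0.973), and it was -1.67 without SS replicate 1. Ackr2, which clears inflammatory CC ligands and marks lymphatic endothelium, had 134 counts in SS replicate 1, a single count in SS replicate 2 and 0 elsewhere.

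Of the 22 members that did not pass the filter, 6 had 0 counts in all libraries: Cxcl11, Cxcl17, Ccl21b, Ccl22, Ccl26 and Ccl27b. Cxcl11 is annotated as a polymorphic pseudogene. How reads shared by near-identical copies, such as those of Ccl27a, were counted is not given. A count of 0 for such a copy therefore does not show absence. The remaining members below the filter were seen in few libraries or at a few counts, and the ones given here were picked after their values were seen. Xcr1, the receptor of cross-presenting dendritic cells, had 121 and 131 counts in SA replicates 1 and 2 and at most 2 in the other libraries. Those 2 libraries also had the highest summed dendritic cell transcripts (8 genes, none at 0), 155 and 191 CPM against 69.7 to 128 CPM. Cxcr5, the follicular homing receptor of B cells, had 472, 12, 97 and 8 counts in SA and 5, 8, 3 and 4 counts in SS. In CPM every SA library lay above every SS library, though SA replicate 4 (0.294 CPM) barely exceeded SS replicate 2 (0.290 CPM). Part of its exons overlap those of Bcl9l on the other strand. Summed B cell transcripts (14 genes, none at 0) were at 1561, 881, 224 and 122 CPM in SA and 162, 32.7, 76.5 and 18.1 CPM in SS, so SA replicate 2 was rich in B cell transcripts and poor in Cxcr5. When low-count genes were kept in, DESeq2 called Cxcr5 (adjusted p = 0.00598) and Xcr1 (adjusted p = 0.023) lower in SS, 4.55% of the 44 members it tested against 1.62% of all genes. edgeR without the filter called neither (adjusted p = 0.484 for each, and 0.016% of all genes called). Ccl11, an eotaxin, had 234 counts in SA replicate 4, 50 in SS replicate 1, 57 in SS replicate 4 and at most 1 elsewhere. Ccl8 reached 200 counts in SS replicate 3, with no more than 38 elsewhere.

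The library order shared by many of these genes was set against the summed pan-leukocyte level over the 8 libraries, on log2 scales. The libraries did not fall into separate clusters on that axis, where the largest gap was 0.247 of the range. Of 37 relations tested, 9 had an adjusted p under 0.05 by a two-sided exact permutation test of Pearson's r, all with r above 0: Ccl6, Cxcr2, Ccl4, Ccl9, Ccr1, Cxcr4, Cxcl2, Ccl3 and Ccr2. Their r ran from 0.853 to 0.996, and 4.55% of all genes tested had an r of 0.853 or more, against 24.3% of the 37. Ccl6 ranked the 8 libraries exactly as the leukocyte sum did (r = 0.996, exact permutation p = 2.48e-05, the smallest these pairings can give, adjusted p = 0.000918; rho = 1, exact permutation p = 4.96e-05, adjusted p = 0.00184). For Cxcr2 r was 0.987 (exact permutation p = 9.92e-05, adjusted p = 0.00122) and rho 0.952 (exact permutation p = 0.00114, adjusted p = 0.00703). For Ccr2 r was 0.853 (exact permutation p = 0.00977, adjusted p = 0.0402) and rho 0.81 (exact permutation p = 0.0218, adjusted p = 0.0733). With SS replicate 4 and SA replicate 2, the libraries farthest from the median, left out, r of the 9 ran from 0.723 for Ccr2 to 0.993 for Ccl6. Each genotype, and each set of date-like numbers, holds too few libraries for a value of its own.

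**Figure D4:**
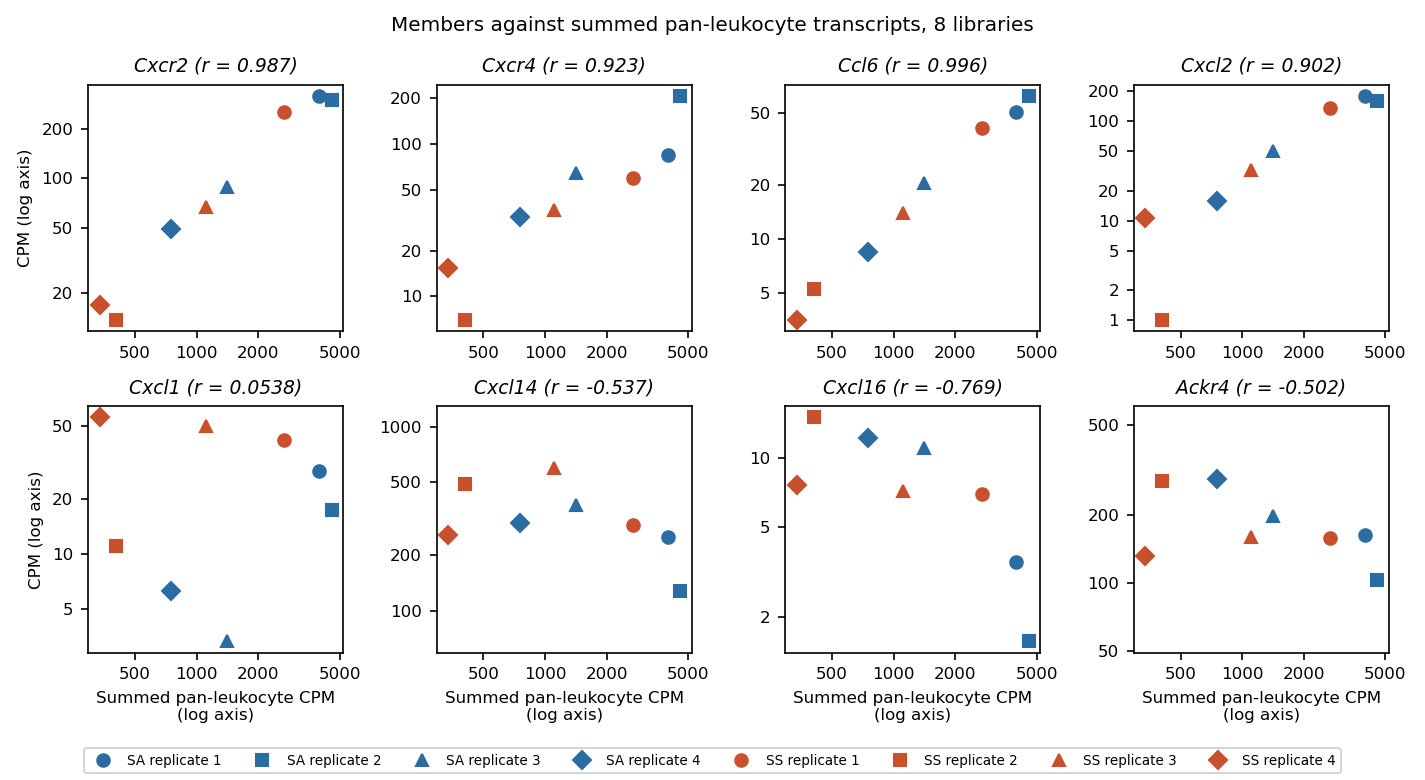
Level of 8 genes in CPM against the summed CPM of 15 pan-leukocyte genes in each library, both on log axes, with SA in blue, SS in orange and Pearson's r on log2 values over 8 libraries above each panel. Over the 8 libraries together Cxcr2, Cxcr4, Ccl6 and Cxcl2 climb with the leukocyte sum (r from 0.902 to 0.996), and Cxcl1 does not (r = 0.0538).

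Over the 8 libraries several other members did not follow that axis. Cxcl1 had an r of 0.0538 (exact permutation p = 0.896, adjusted p = 0.921) and a rho of -0.143 (exact permutation p = 0.752, adjusted p = 0.87), and Cx3cl1 an r of -0.145 (exact permutation p = 0.746, adjusted p = 0.847). Cxcl14 (r = -0.537) and Ackr4 (r = -0.502) were lower where leukocyte transcripts were higher, without passing (exact permutation p = 0.168 and 0.211, adjusted p = 0.341 and 0.372). Cxcl16 had the most negative r of the 37, at -0.769 (exact permutation p = 0.019, adjusted p = 0.0703), with a rho of -0.81 (exact permutation p = 0.0218, adjusted p = 0.0733). Ccl2 and Ccl7 had r values of 0.358 and -0.138, which became 0.910 and 0.815 without SS replicate 4 and SA replicate 2. SS replicate 4 held the least leukocyte RNA and was high for both ligands. Without the same 2 libraries r was 0.432 for Cxcl1 and 0.338 for Cx3cl1. It was then -0.640 for Cxcl14, -0.817 for Ackr4 and -0.892 for Cxcl16.

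Genes beyond the 59 were taken from lists of chemokine receptor signalling and of chemokine-related genes with other symbols. Of 30 genes of receptor signalling tested, 22 had a negative log2 fold change and 8 a positive one, with 0 called (edgeR, smallest adjusted p = 0.718). Over all genes 51% had a negative one. The median of the 30 was -0.35, and it was 0.09 with the pan-leukocyte covariate. The smallest p values belonged to Arrb2, which encodes the beta-arrestin that desensitizes these receptors (74.1 ± 53.1 CPM for SA, 28.3 ± 21.8 CPM for SS), Pik3cg, the kinase subunit switched on by G proteins (79.8 ± 64.2 and 25.0 ± 24.9 CPM), and Dock2, a leukocyte activator of Rac (130.1 ± 92.2 and 58.1 ± 32.9 CPM). Of 7 tested chemokine-related genes whose symbols fall outside the rule, 6 had a negative and 1 a positive log2 fold change. An unadjusted edgeR p under 0.05 was found for 3 of the 7, all lower in SS, against 6.98% of all genes in either direction. Among these 3 were the platelet chemokines Pf4 (51.1 ± 65.0 and 5.16 ± 4.81 CPM, unadjusted p = 0.013 and adjusted p = 0.695 by edgeR) and Ppbp (57.1 ± 80.0 and 3.32 ± 4.04 CPM, unadjusted p = 0.0262 and adjusted p = 0.695 by edgeR). Pf4 was at 143 CPM and Ppbp at 56.6 CPM in SA replicate 1, at 49.9 and 171 CPM in SA replicate 2, and at most 11.7 and 9.29 CPM elsewhere. The third, Pitpnm3, whose human form was proposed as a receptor for human CCL18, was at 9.04 and 5.15 CPM in SA replicates 3 and 4. It was at most 0.806 CPM in the other 6 (edgeR unadjusted p = 0.0411, adjusted p = 0.695). Summed megakaryocyte transcripts (9 genes, Pf4 and Ppbp among them, none at 0) were at 281 and 377 CPM in SA replicates 1 and 2 and at 6.54 to 37.5 CPM elsewhere. Pf4 and Ppbp make up most of the sum in those 2 libraries, so it is not a separate measure beside them. No sum without them was made.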

How the data were processed

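Bulk RNA of sorted marrow stromal cells was counted in 4 SS and 4 SA libraries. The authors deposited whole-number counts for each gene symbol, with the lanes of a library joined. Per the submitters' processing notes the tools were bcl2fastq, STAR, featureCounts and DESeq2 on mm10 and GRCm38, with neither version nor role stated. Annotation, strand and read filters: not given in the sources used here. Columns were matched to libraries through the titles. A second deposited table of scaled values was not used.

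Genes passing filterByExpr by genotype (17316 of 52459) were scaled by TMM and tested with edgeR 4.0.16 (R 4.3.3; robust quasi-likelihood F test, genotype as the sole term, Benjamini-Hochberg adjustment over all genes, threshold 0.05). SEs were obtained as log2 fold change over the square root of F. DESeq2 1.42.0, limma-voom (limma 3.58.1), other scalings and filters, a replicate block, a pan-leukocyte covariate (mean log2 level of 15 genes, prior count 2), the removal of each library and that of the 3 leukocyte-rich ones were alternatives. Marker sums were compared by two-sided exact permutation over 70 arrangements, and correlations over 40320 pairings. Scripts were tested on simulated counts. Exon lengths and positions are from GENCODE M21 (GRCm38), where all 59 symbols matched, and upstream sequences from RefSeq (GRCm38.p6).

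The members, gene lists and naming rule were chosen with earlier results of these data known. Named are members with a mean of at least 5 CPM, the 6 with the smallest p in each direction, those without overlap, those called by DESeq2, the atypical receptors, and the 3 smallest p values of each pathway list. 1 member that this rule names is not reported here.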

Additional observations from a re-analysis of the deposited data

Results flagged for a closer look

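Of 56 groups of 4 libraries (28 named genes in each genotype), 8 held a library that stood far from its group by Dixon's criterion at the 95% level. SS replicate 1 was the outlying library in 5 of them: Ccl3 at 35.0 CPM against 2.68 CPM in the next SS library, Ccl4 at 19.3 CPM against 2.08 CPM, Ccr1 at 54.3 CPM against 6.82 CPM, Ccr6 at 3.06 CPM against 0.459 CPM and Ccr9 at 19.3 CPM against 3.26 CPM. It is also the SS library with the most pan-leukocyte transcripts, 2684 CPM, with no other SS library above 1108 CPM. The other 3 were Cxcl5 in SA replicate 1 (4.40 CPM against 0.452 CPM in the next), Cxcl16 in SS replicate 2 (15.1 CPM against 7.64 CPM) and Ccr3 in SS replicate 3 (58.6 CPM against 9.90 CPM). The criterion flags about 5% of groups by chance if groups are independent and values normally distributed. These groups share the same libraries and were compared in CPM, so whether 8 of 56 is an excess cannot be told.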

How the results depend on the processing

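By edgeR 0 genes passed the adjusted threshold, as did 0 of the 37 members. Over all genes the count was 128 by DESeq2, 315 by DESeq2 with no low-count filter, 5 by edgeR with no low-count filter, and 0 to 1 with each library left out. The unfiltered DESeq2 fit was added after the data were seen, and it called 2 members. The 2 members with an unadjusted p under 0.05 became 4 by DESeq2, 9 by unfiltered DESeq2, 4 by limma-voom, 9 with no low-count filter, 4 when genes under a mean of 1 CPM were dropped, 6 without SA replicates 1 and 2 and SS replicate 1, and 1 to 9 with each library left out.

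With the pan-leukocyte covariate the sign turned for 10 of 28 named genes: Cxcl2 (0.54), Cxcl9 (-0.0663), Cxcl16 (-0.22), Ccl2 (0.39), Ccl4 (0.46), Ccl6 (0.34), Ccl9 (0.11), Cx3cr1 (1.0), Cxcr2 (0.37) and Ccr2 (0.95). The median of the 37 became 0.37, against -0.14. Without the 3 leukocyte-rich libraries it turned for Cxcl10 (0.05), Cxcl16 (-0.23), Ccl2 (1.11), Ccr2 (0.18), Ccr6 (-0.57) and Ackr1 (-0.67), and by limma-voom for Ackr1 (-0.97). Without those 3 libraries Cx3cl1 was at -0.37 and Ccr3 at 2.29. With each library left out, values ran across 0 for Cxcl10 (-0.59 to 0.16), Cxcl9 (-0.0368 to 0.675), Ccl2 (-0.91 to 0.62), Cx3cl1 (-0.24 to 0.10), Cx3cr1 (-2.48 to 0.10), Cxcr6 (-0.0847 to 0.159), Ccr3 (-1.17 to 1.02), Ccr6 (-0.35 to 1.39), Ackr1 (-1.67 to 0.75), Ackr4 (-0.33 to 0.24) and the endothelial sum (-31.3 to 23.0 CPM, SS minus SA). They kept their sign for Cxcl16 (0.0334 to 0.775) and Ccr2 (-1.29 to -0.161). The cause was not tested. DESeq2, RLE and upper quartile factors turned no sign.

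Same-numbered libraries had deviations with r of 0.223, -0.149, -0.0196 and 0.145, and libraries of unlike number had r from -0.280 to 0.216. With ranges this alike, whether the numbers pair libraries cannot be told. With the replicate block 0 genes passed, 3 members had an unadjusted p under 0.05 (Ccl3, Ccl4 and Ccr1, with neither Cxcl1 nor Cxcr4 among them) and Ackr1 turned to -1.06. Correlations with raw totals again gave 9 members, and 7 to 10 with each library left out, both added after the data were seen. With 4 libraries a genotype and counts as low as 1, precision is limited for Cxcl5, Ccl28 and the members that did not pass the filter.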

Other observations

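Over the 8 libraries, genes of the same chemokine cluster differed in how they ranked the libraries. These genes were chosen after their values were seen. On chromosome 11 (GRCm38) Ccl9 (83572919 to 83578636), Ccl6 (83587882 to 83593087), Ccl3 (83647844 to 83649355) and Ccl4 (83662584 to 83664683) had r values of 0.959, 0.996, 0.883 and 0.981 with the pan-leukocyte level over 8 libraries. Farther off in the same family cluster, Ccl2 (82035571 to 82037453) and Ccl7 (82045712 to 82047525) had r values of 0.358 and -0.138. Without SS replicate 4 and SA replicate 2 these were 0.910 and 0.815. The first group then ran from 0.795 for Ccl3 to 0.993 for Ccl6, so this contrast rests on those 2 libraries. On chromosome 5 Cxcl2 (90903871 to 90905938) had an r of 0.902 and its neighbour Cxcl1 (90891241 to 90893115) an r of 0.0538, although both hold the motif shown above. Without the same 2 libraries these were 0.952 and 0.432. In the receptor cluster of chromosome 9, r was 0.944 for Ccr1, 0.853 for Ccr2 and 0.586 for Ccr3. No test of these differences was made, and the 8 libraries, their depth and their genotype are shared by all of these values.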
